A study of Mus musculus with 24 samples.

Results

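The retina and the pineal gland of mice with a conditional knockout of Neurod1 were compared by day. NeuroD1 is a basic helix-loop-helix transcription factor of photoreceptors and pinealocytes. 6 of the 24 arrays of the series made up the comparison, the 3 pools titled as conditional knockout (cKO) retina at ZT6 and the 3 titled as cKO pineal gland at ZT6, chosen by their labels. All 18193 genes with a named probe set were carried, each by 1 probe set, and 12881 were bright enough to test.

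The cKO retinas and cKO pineal glands came from mice with the genotype NeuroD1flox::Crx-Cre+/-, with both Neurod1 alleles floxed. Control retinas and control pineal glands, used beside them, were NeuroD1flox::Crx-Cre-/- and so carried the same floxed alleles without Cre. All mice were C57BL/6J, of both sexes and 2 months old, kept in 12 h of light and 12 h of dark. ZT6 is 6 h after lights on, and other pools of both cKO tissues were taken at ZT20, at night, under dim red light. Each array held a pool of 6 glands or retinas, so the spread is that between pools and not between single mice. Cre was driven by the Crx promoter, which is active in photoreceptors and pinealocytes. Which other cell types of either tissue lost or kept the floxed alleles cannot be read from these arrays. Which exon the Cre removes was not given in the sources used here.

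Pinealocytes and photoreceptors are sister cell types that share the homeobox factors Crx and Otx2 and much of the phototransduction cascade. A rod turns light into an electrical signal through transducin and a cGMP phosphodiesterase that closes a cGMP-gated channel. The mammalian pinealocyte does not sense light and makes melatonin at night from tryptophan. The retina also holds cones, bipolar, horizontal, amacrine and ganglion cells and Mueller glia, while the gland lies among meninges, vessels and choroid plexus.

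Signals are linear array units without a stated scaling. Across the 6 arrays of the comparison the median signal was 134.1, 183.1 and 141.7 in cKO retina pools 1, 2 and 3, against 131.0, 115.5 and 118.0 in the cKO pineal pools. Retina pool 2 had the highest of the 3 retina signals for 86.5% of genes tested, and Actb 3' to 5' ratios overlapped between the tissues. Those of Gapdh did not, at log2 ratios of 0.351, 0.255 and 0.326 in cKO retina and 0.426, 0.488 and 0.363 in cKO pineal gland. Differences are log2(signal + 16), retina minus pineal gland, with the SE of the limma fit and n = 3 pools in each group. A gene "passed" with a Benjamini-Hochberg adjusted p under 0.05. A log2 difference of 2 is 4-fold, and dim genes are understated by the added 16. Nothing in the labels says that pools of a group came from separate litters, so p-values measure spread between pools. That spread is taken within all 8 groups of the series, not from the 6 compared arrays alone. In bulk tissue, fewer cells of a type and less RNA per cell cannot be told apart.

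Neurod1 itself was low in both cKO tissues but not equally low. Its signal was 638.6, 774.1 and 293.2 in cKO retina pools, against 83.5, 29.1 and 30.9 in cKO pineal pools. Control retinas had 6967.4, 6553.6 and 5701.4, and control pineal glands 4646.7, 5268.0 and 5008.4. As a share of the control mean of the same tissue, cKO retina pools had 9.97, 12.1 and 4.58% and cKO pineal pools 1.68, 0.585 and 0.621%, so the cKO pools did not overlap. The difference between the cKO tissues was 3.19 ± 0.80 (95% interval 1.55 to 4.83, adjusted p = 0.0011 by limma). In cKO retina the remaining signal stood at percentiles 73.4, 71.6 and 60.4 of its arrays, above the array median, and in cKO pineal gland at percentiles 43.4, 32.0 and 31.0. A second probe set gave 218.4, 231.4 and 65.4 in cKO retina and 18.4, 3.0 and 8.6 in cKO pineal gland. Neurod1 is known from amacrine cells of the retina as well as from photoreceptors. The cell source of the remaining retinal signal was not tested. The difference from the control tissue difference, 2.83 ± 1.13, did not pass (adjusted p = 0.15). Both SEs rest on the spread within all 8 groups of the series, so neither measures the spread at ZT6 alone. In the cKO groups at ZT20 Neurod1 read 369.4 to 3595.4 in retina and 22.5 to 1896.7 in pineal gland.

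**Figure D1:**
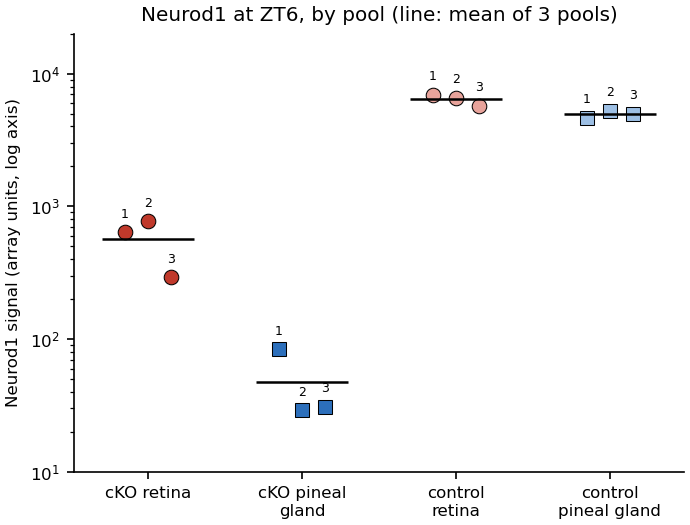
Neurod1 signal (array units, log axis) in each pool at ZT6, with pool numbers and lines at the mean of 3 pools. cKO retina pools lie at 293.2 to 774.1 and cKO pineal pools at 29.1 to 83.5, all below the control pools at 4646.7 to 6967.4.

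The labelled tissues carried their defining genes, rod genes in the retina and melatonin genes in the gland, with values below, but 1 pool stood apart in each. cKO pineal pool 3 carried more signal of retinal genes than pools 1 and 2. Gnat1, the alpha subunit of rod transducin, read 114.9, 76.9 and 2233.7 in cKO pineal pools 1, 2 and 3. Recoverin (Rcvrn) read 12.5, 11.4 and 808.4 there, and neurofilament light chain (Nefl), a marker of ganglion cells, 4.2, 7.7 and 208.8. Of 1037 genes called at least 4-fold higher in cKO retina at ZT20, on other arrays (8.05% of those tested), pool 3 was the highest pineal pool for 54%. That share was 15.9% over all genes tested and 6.52% over the 644 genes (5%) called at least 4-fold lower in cKO retina at ZT20. Control pineal pool 3 was the highest of its group for 58.8% of the 1037 genes, beside 43.4% over all genes tested and 38.2% over the 644. The part of pineal pool 3 in each result was not tested. Without it the difference of Gnat1 was 6.99 ± 0.79 in place of 5.54 ± 0.89, and that of Rcvrn 8.47 ± 0.77 in place of 6.85 ± 0.92. Other differences named below that moved by over 1.5 times were larger without it, namely Cnga1 (8.40), Rims1 (8.39), Rp1 (8.33), Cryba1 (8.25), Nefl (8.17), Isl1 (7.93), Rit2 (7.90), Lamp5 (7.43), Gad2 (6.86) and Grik1 (6.75).

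cKO retina pool 3 stood apart in genes of the lens and the pigment epithelium, which lie next to the retina. Summed over 16 crystallin genes, the signal was 36649.2, 36543.9 and 136520.3 in cKO retina pools, against 11408.0, 10565.2 and 10737.3 in cKO pineal pools. Pool 3 was the highest retina pool for 16 of 16 crystallins and for 12 of 13 pigment epithelium and melanosome genes. Without that pool 12 of the 16 crystallins were higher in cKO retina and 1 lower, with a median difference of 4.55, against 15, 0 and 5.33 with all pools. Crystallins are near-identical copies in part, so their probe sets may share signal.

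**Figure D2:**
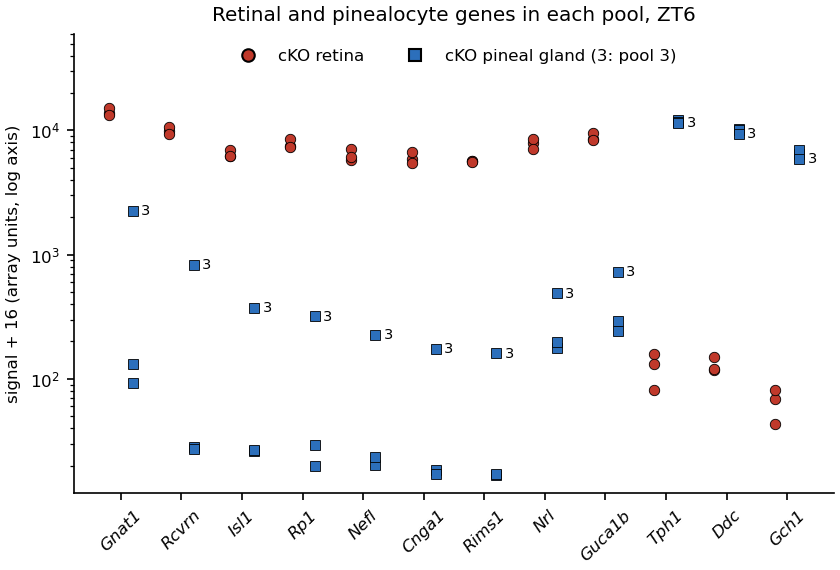
Signal + 16 (array units, log axis) of 9 retinal genes and 3 melatonin pathway genes in the 3 cKO retina pools and 3 cKO pineal pools at ZT6. Pineal pool 3 lies above the other pineal pools for the retinal genes, for instance 2233.7 against 114.9 and 76.9 for Gnat1, and next to them for Tph1, Ddc and Gch1.

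Over all genes, 7523 of 12881 passed (58.4%), with 3349 higher in cKO retina (26%) and 4174 lower (32.4%). The median difference was -0.08. With a difference of at least 2 as well, 966 genes were higher (7.5%) and 782 lower (6.07%). The pools of 3749 genes did not overlap with retina on top (29.1%), and those of 4532 genes with pineal gland on top (35.2%). The balance depended on scaling. Higher genes made up 44.5% of those called on the values as deposited, 27.2% after centring every array on its median, which took the median difference to -0.37, 45.3% on a common trimmed mean and 43% after quantile normalisation. A small difference is therefore read against the median of all genes in what follows.

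Rod phototransduction differed in parts between the cKO tissues. Of its 18 tested members 15 were higher in retina and 0 lower, against 26% of all genes higher, with a median difference of 1.58 (1.61 without pineal pool 3). Some genes were at the low end of the scale in the pineal gland, and others were bright in both tissues. Cnga1, the rod cGMP-gated channel's alpha subunit, read 5824.3, 6667.4 and 5488.2 in cKO retina and 2.3, 1.1 and 157.2 in cKO pineal gland. All retina pools lay far above all pineal pools, with a difference of 7.31 ± 0.64 (adjusted p = 3.8e-11), or 8.40 ± 0.55 without pineal pool 3. Gnat1, at 13916.5, 15031.5 and 13247.7 in cKO retina, differed by 5.54 (adjusted p = 3.7e-06). Pde6a, the phosphodiesterase alpha subunit, differed by 5.13, and the guanylate cyclase activator Guca1b by 4.56.

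Among the genes bright in both tissues, Pde6g, the inhibitory gamma subunit of the same phosphodiesterase, read 7992.1, 8727.3 and 7504.8 in cKO retina and 8790.5, 9138.0 and 8096.8 in cKO pineal gland. Its pools overlapped and the difference of -0.10 (95% interval -0.24 to 0.03) did not pass on the deposited scale, while median centring gave -0.39 (adjusted p = 0.00068). Pde6b, the beta subunit, read 7192.8, 8374.7 and 6802.4 in cKO retina and 4581.4, 4975.6 and 4253.9 in cKO pineal gland, a difference of 0.69 without overlap. The 3 phosphodiesterase subunits of rods thus had differences of 5.13, 0.69 and -0.10 between the same pools. Sag, rod arrestin, which shuts off the light response, read 12657.9, 13074.3 and 11792.5 in cKO retina and 10466.5, 10488.9 and 10865.0 in cKO pineal gland. Its difference of 0.24 ± 0.06 passed (adjusted p = 0.0016) but was -0.05 (adjusted p = 0.64) after median centring.

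The transducin beta subunit Gnb1 (0.11, 95% interval -0.01 to 0.23) and Gnb5, the beta subunit that pairs with Rgs9 (0.15, -0.04 to 0.33), did not pass. Intermediate differences were 0.99 for Cngb1, 1.12 for Guca1a, 1.21 for the exchanger Slc24a1, 1.44 for Rgs9bp, 1.80 for phosducin (Pdc), 1.87 for transducin gamma (Gngt1) and 2.17 for the receptor kinase Grk1. Rgs9, the GTPase accelerator of transducin, differed by 1.72, but by 0.18 (adjusted p = 0.39) when its probe sets were averaged. Gucy2e lay below the filter.

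**Figure D3:**
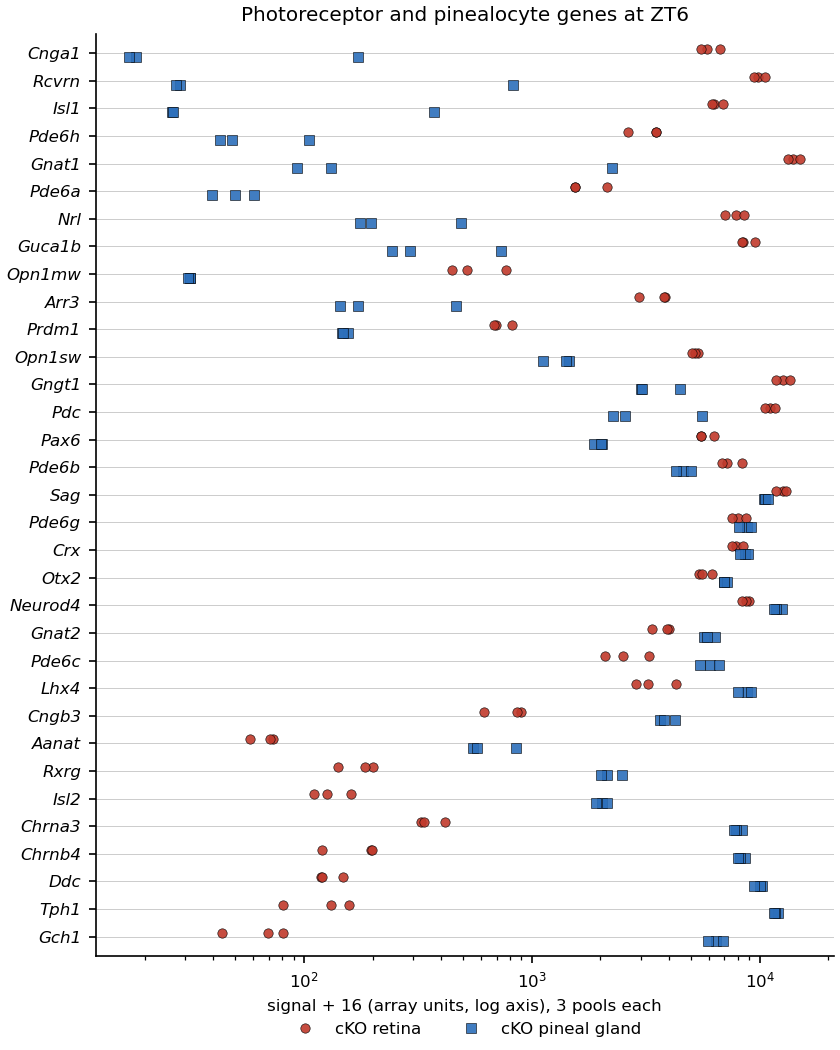
Signal + 16 (array units, log axis) of photoreceptor, transcription factor and melatonin genes in 3 cKO retina pools and 3 cKO pineal pools at ZT6, ordered by difference. Cnga1 and Rcvrn at the top are separated by differences of 7.31 and 6.85, Pde6g and Crx lie together, and Tph1 and Gch1 at the bottom differ by -6.63 and -6.68.

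Cone phototransduction split both ways. Of its 11 tested members 4 were higher in cKO retina and 7 lower, with a median of -0.43. Opn1mw, the M opsin, read 504.7, 757.0 and 428.9 in cKO retina and 15.6, 15.7 and 15 in cKO pineal gland, a difference of 4.17 ± 0.35. Its signal in control retina was 2233.5, 1930.3 and 2240.3, above all cKO retina pools. Opn1sw, the S opsin, read 5339.1, 5157.3 and 5004.4 in cKO retina and 1443.9, 1399.2 and 1098.5 in cKO pineal gland, a difference of 1.97 ± 0.27. Cone arrestin (Arr3) and the cone phosphodiesterase gamma subunit Pde6h were also higher, by 3.95 and 5.73.

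Cone transducin alpha, the catalytic phosphodiesterase subunit Pde6c and the channel gene Cngb3 ran the other way. Cngb3, the cone channel's beta subunit, read 601.4, 876.9 and 846.0 in cKO retina and 3633.9, 3789.6 and 4251.2 in cKO pineal gland, a difference of -2.32 ± 0.16. Pde6c differed by -1.23 and Gnat2, the transducin gene, by -0.67, with no overlap of pools for either. The exchanger Slc24a2 differed by -0.73. Gngt2 (-0.85) passed with all pools but not without pineal pool 3 (adjusted p = 0.063). Gnb3 (-0.22, adjusted p = 0.037) and Kcne2 (-0.43, adjusted p = 0.041) passed narrowly. Each kept or lost the call depending on which single pool was left out.

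Structural and retinoid genes of the outer segment were mostly higher in cKO retina. Of 15 outer segment genes 9 were higher and 1 lower, with a median of 0.64; after median centring 8 were higher and 5 lower. Rp1, an axonemal microtubule protein, read 7468.2, 8532.0 and 7283.2 in cKO retina and 13.3, 3.9 and 301.7 in cKO pineal gland, a difference of 7.09 ± 0.74 (3.66 with probe sets averaged). The disc rim protein Prph2 and the actin bundler Fscn2 differed by 2.95 and 4.62. Cdhr1, a cadherin of the disc base, was the 1 lower gene, with 7842.6, 8673.3 and 7468.3 in cKO retina and 9670.4, 10421.1 and 9701.4 in cKO pineal gland (-0.31, adjusted p = 0.00021). In the visual cycle 7 of 10 tested genes were higher and 2 lower, with a median of 1.47. The photoreceptor retinol dehydrogenase Rdh12 differed by 4.89 and Rlbp1, a retinaldehyde carrier of Mueller glia, by 3.41. Rdh5, a dehydrogenase of the pigment epithelium, went the other way with -2.34, as did the retinol-binding protein receptor Stra6 with -1.19.

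Among the transcription factors, Crx and Otx2 differed little between the cKO tissues and Nrl differed widely. Crx read 7844.1, 8387.2 and 7547.6 in cKO retina and 8569.2, 8891.4 and 8171.3 in cKO pineal gland. The pools overlapped, and the difference of -0.11 ± 0.07 (95% interval -0.25 to 0.04) did not pass on the deposited scale, but did after median centring (-0.40, adjusted p = 0.00093). Otx2, at 5412.1, 6186.0 and 5534.5 in cKO retina and 6972.0, 7137.2 and 6963.7 in cKO pineal gland, was lower by a small difference of -0.30 ± 0.09 (adjusted p = 0.0055). Nrl, the leucine zipper factor that sets rod identity, read 7836.5, 8512.1 and 7056.1 in cKO retina and 160.5, 181.3 and 471.8 in cKO pineal gland, a difference of 4.92 ± 0.49 (adjusted p = 4.8e-10).

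Over the 20 tested factors 12 were higher in cKO retina, 7 lower, and the median was 1.13. The eye field factors Six6, Six3, Lhx2 and Pax6 differed by 5.55, 4.05, 2.90 and 1.55. Isl1, of bipolar, amacrine and ganglion cells, differed by 6.66 (7.93 without pineal pool 3), and Vsx1, of cone bipolar cells, by 4.02. Prdm1, which favours photoreceptor over bipolar fate, differed by 2.28 and Mef2c by 1.46. Rorb and Rax were higher by 0.80 and 0.67, and each lost its call in another setting. For Rorb this was with probe sets averaged, and for Rax it depended on which single pool was left out.

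Higher in the cKO pineal gland were Isl2, Rxrg, Lhx4 and Neurod4. Isl2, a LIM homeobox factor, read 94.1, 144.0 and 109.5 in cKO retina and 2021.1, 2117.8 and 1890.3 in cKO pineal gland (-3.96 ± 0.28). The retinoid X receptor Rxrg differed by -3.67, and Lhx4 by -1.35. Neurod4, a proneural relative of Neurod1, read 8965.6, 8675.1 and 8370.2 in cKO retina and 12538.2, 11719.1 and 11559.2 in cKO pineal gland, without overlap (-0.46 ± 0.07, adjusted p = 1.2e-06). Neurod2 (-0.58, adjusted p = 0.034) and Sox4 (-0.44, adjusted p = 0.045) passed narrowly. Sox4 lost the call whichever single pool was left out, and Neurod2 kept or lost it depending on the pool. Thrb lay below the filter.

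Promoters of 4 of these genes are printed because the signals of Crx and Sag lie close between the tissues, Cnga1 is far higher in retina and Tph1, the first melatonin enzyme, far higher in the pineal gland. Each shows the 250 bases before the start site from RefSeq on build GRCm38.p6, 5' to 3' on the gene's strand. Capitals mark TAATCC, the core of sites bound by Crx and Otx2, and its reverse complement GGATTA, searched on both strands.
Crx, chr7:15879956-15880205, minus strand: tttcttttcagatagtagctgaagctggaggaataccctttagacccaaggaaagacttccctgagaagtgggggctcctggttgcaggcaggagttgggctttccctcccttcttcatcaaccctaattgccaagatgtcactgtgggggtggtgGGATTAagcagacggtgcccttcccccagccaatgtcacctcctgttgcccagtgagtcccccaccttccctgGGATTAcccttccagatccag
Sag, chr1:87803430-87803679, plus strand: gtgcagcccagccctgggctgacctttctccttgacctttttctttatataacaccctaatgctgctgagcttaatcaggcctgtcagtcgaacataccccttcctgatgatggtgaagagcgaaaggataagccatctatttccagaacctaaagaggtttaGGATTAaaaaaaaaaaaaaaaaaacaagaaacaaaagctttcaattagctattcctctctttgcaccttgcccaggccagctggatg
Cnga1, chr5:72642753-72643002, minus strand: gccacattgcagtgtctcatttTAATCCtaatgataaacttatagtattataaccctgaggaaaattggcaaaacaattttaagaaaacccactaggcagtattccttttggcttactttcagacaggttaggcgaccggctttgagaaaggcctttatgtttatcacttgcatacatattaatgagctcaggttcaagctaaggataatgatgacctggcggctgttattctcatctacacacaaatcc
Tph1, chr7:46672538-46672787, minus strand: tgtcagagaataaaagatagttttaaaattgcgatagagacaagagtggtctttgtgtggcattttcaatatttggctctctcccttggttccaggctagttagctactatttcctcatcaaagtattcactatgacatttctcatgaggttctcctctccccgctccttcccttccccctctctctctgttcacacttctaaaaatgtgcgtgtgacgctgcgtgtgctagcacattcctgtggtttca
Counted from the start site, the matches begin at bases -94 and -21 in Crx, -87 in Sag and -228 in Cnga1, and there is none in the Tph1 window. Over windows of 250 bases before to 50 after the start, 7.06% of all 32851 promoters in the table held TAATCC on either strand. The share was 6.21% of 983 promoters of genes at least 4-fold higher in cKO retina (721 of 966 genes matched). It was 7% of 700 promoters of those at least 4-fold lower (577 of 782 matched) and 5.95% of 13355 promoters of all genes tested. A gene with several promoters counts once for each. CAGCTG, an E-box that reads the same on both strands, was in 21.3% of promoters of the first set and 18.9% of the second. It was in 15.7% of promoters of all genes tested. A match of letters does not show a bound site.

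Melatonin synthesis and pinealocyte genes ran the other way, with 15 of 19 lower in cKO retina, 4 higher, and a median of -3.27. Of all genes 32.4% were lower and 26% higher. The list was chosen with earlier results of these data known, so its count is a description and not an independent test. Tph1, tryptophan hydroxylase, read 65.2, 142.1 and 114.8 in cKO retina and 12032.6, 11606.3 and 11544.6 in cKO pineal gland, a difference of -6.63 ± 0.30 (adjusted p = 1.5e-17). Gch1, which starts synthesis of the hydroxylase's cofactor, read 27.6, 53.2 and 64.8 in cKO retina and 6392.7, 6910.9 and 5891.9 in cKO pineal gland (-6.68 ± 0.21). Ddc, the decarboxylase that makes serotonin, differed by -6.27. No retina pool of these genes came near a pineal pool.

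Aanat, the enzyme that limits melatonin output, is induced at night, and at ZT6 it read 41.7, 57.0 and 54.7 in cKO retina and 832.1, 535.6 and 558.4 in cKO pineal gland. The difference was -3.27 ± 0.24 by day (adjusted p = 9.9e-13) and -5.85 at ZT20. The nicotinic receptor subunits Chrna3 and Chrnb4 differed by -4.48 and -5.63, the serine protease inhibitor Spink4 by -7.61, Dlk1 by -7.33, the tachykinin Tac4 by -7.01 and Esm1 by -7.01. Smaller were the vesicular monoamine transporter Slc18a1 (-1.21), the pteridine reductase Qdpr (-0.85), Pmepa1 (-0.78) and the alpha-adrenergic receptor Adra1b (-0.70). Pmepa1 lost its call with probe sets averaged, and Adra1b kept or lost it depending on which single pool was left out. The 4 higher in retina were Drd4, Gng4, Cpm and Sv2b. Drd4, the dopamine D4 receptor, read 1654.0, 2806.9 and 1948.4 in cKO retina and 46.9, 49.5 and 56.5 in cKO pineal gland, without overlap (4.97 ± 0.25). Asmt, the last enzyme of the pathway, was not analysed here. Array signal of these genes shows neither working enzyme nor melatonin output, which were not examined.

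The largest differences belonged to crystallins, photoreceptor genes and neuronal genes on the retinal side and to pinealocyte and connective tissue genes on the pineal side. Among the 15 largest in cKO retina, besides Cnga1, Rp1 and Rcvrn, 6 were crystallins, led by Crygb (7.76 ± 0.92) and Cryba1 (7.59 ± 0.79). Neuronal genes followed, namely the active zone protein Rims1 (7.30), Nefl (7.05), the neuronal GTPase Rit2 (6.80), Lamp5 (6.69), calretinin (Calb2, 6.69) and Cbln2, a synapse organiser. Cbln2 read 2964.0, 3482.9 and 3276.6 in cKO retina and 14.1, 1.4 and 44.2 in cKO pineal gland, with the smallest adjusted p of the 15 (6.69 ± 0.30, 1.5e-17). Rit2 was 4.36 with probe sets averaged. On the other side Cnpy1, known as a regulator of FGF signalling in zebrafish, headed the genes lower in cKO retina. Cnpy1 read 5.0, 7.4 and 19.1 in cKO retina and 6568.1, 6614.8 and 6104.3 in cKO pineal gland (-7.96 ± 0.27). Beside the pinealocyte genes above, the 15 held Foxc2 (-6.85), a factor of mesenchyme, Ccn3 (-6.60), Prr32 (-6.73), the muscle regulators Myog and Pax3 (both -6.42) and the immunoglobulin genes Igkv8-30 (-6.78) and Igk (-6.09, or -1.89 with probe sets averaged).

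Genes of retinal neurons other than photoreceptors were mostly higher in cKO retina. All 7 tested horizontal cell genes were higher (median 4.66), 11 of 13 amacrine genes (1 lower, median 4.14), 11 of 14 ganglion cell genes (3 lower, median 3.40) and 11 of 15 bipolar genes (4 lower, median 1.98). Calbindin (Calb1), of horizontal cells, read 4128.8, 5357.0 and 4708.1 in cKO retina and 63.6, 56.3 and 137.5 in cKO pineal gland (5.62 ± 0.26). Gad2, which makes GABA in amacrine cells, differed by 6.19, and the kainate receptor subunit Grik1 by 6.07. The furthest exception was Isl2 (-3.96), listed for ganglion cells. Others included Car8 (-1.54), a carbonic anhydrase relative, and Lhx4 (-1.35), both listed for bipolar cells. Slc17a6 (-1.03), the vesicular glutamate transporter listed for ganglion cells, was also lower. Slc17a6 read 3091.4, 3983.5 and 3114.2 in cKO retina and 7630.2, 6608.8 and 6539.4 in cKO pineal gland. Of 15 genes of GABA, glycine and glutamate transmission 12 were higher and 2 lower (median 3.92).

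The photoreceptor synapse and the secretory granule held genes of both directions, beside 26% of all genes higher and 32.4% lower. Of 16 ribbon synapse genes 9 were higher and 3 lower (median 0.37). After median centring 7 were higher and 6 lower, beside 2601 and 6963 of all 12881 genes. Cabp4, a calcium sensor of the rod terminal, differed by 5.64, and the vesicular glutamate transporter Slc17a7 by 2.11, while complexin 3 (Cplx3, -0.43) and synaptophysin (Syp, -0.34) were lower. Dense-core granule genes numbered 9 higher and 4 lower of 15 (median 0.72), or 7 and 4 (median 0.35) without pineal pool 3. The granule protein Resp18 (5.35) and the neuropeptide precursor Vgf (4.39) were higher, and the chromogranins Chga (-0.95) and Chgb (-0.88) lower.

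**Figure D4:**
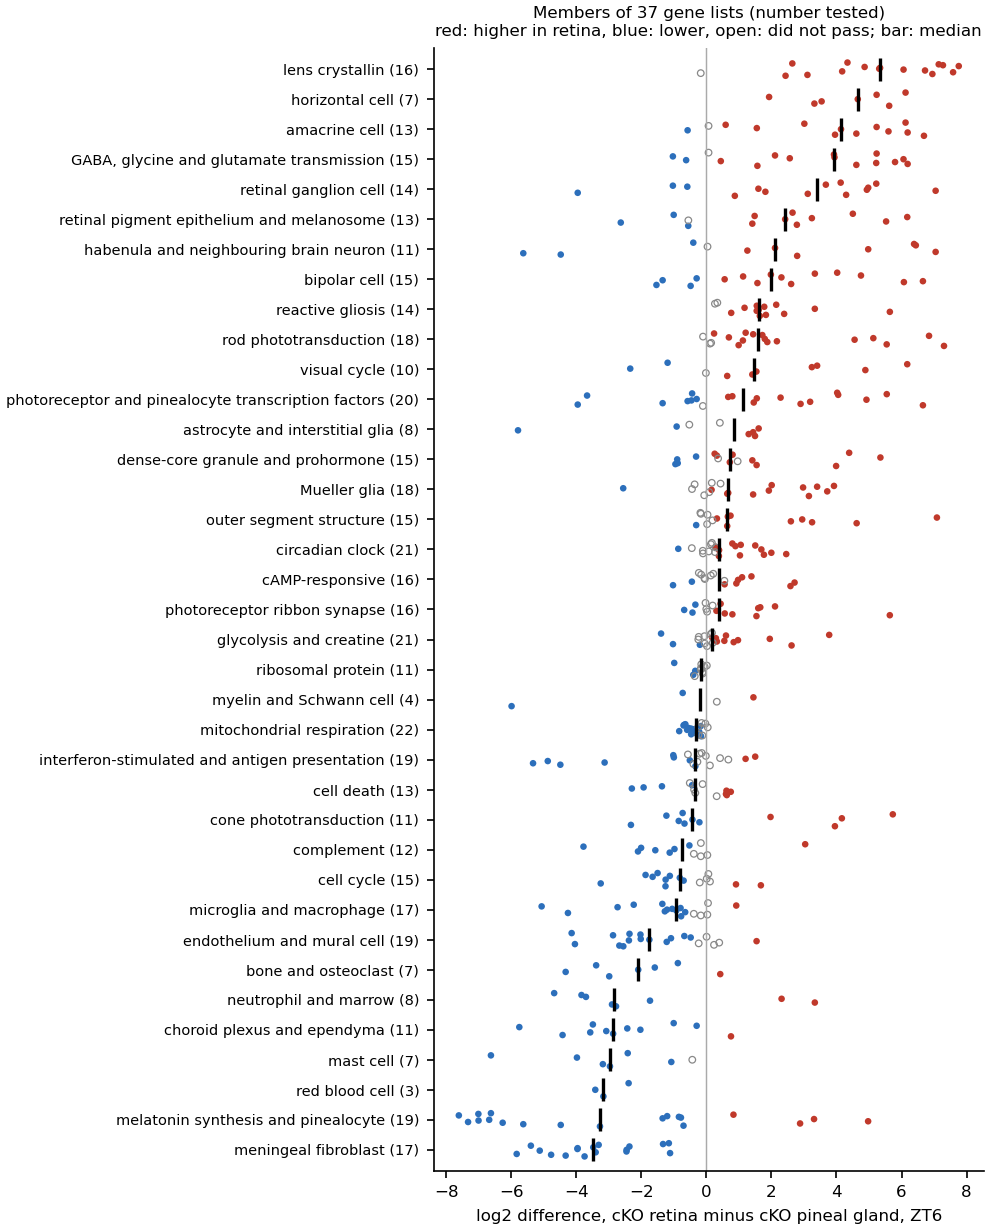
Log2 difference (cKO retina minus cKO pineal gland, ZT6) of every tested member of 37 gene lists, with a bar at each list's median. Crystallin and horizontal cell lists have medians of 5.33 and 4.66, melatonin and meningeal fibroblast lists -3.27 and -3.48.

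Genes listed for cells that surround the pineal gland were mostly lower in cKO retina. All 17 meningeal fibroblast genes were lower (median -3.48), beside 32.4% of all genes. Col3a1, a fibrillar collagen, read 35.2, 71.2 and 102.9 in cKO retina and 4606.3, 5492.7 and 3852.6 in cKO pineal gland (-5.83 ± 0.32). Of 11 choroid plexus genes 10 were lower (median -2.87), among them the anti-ageing factor Kl at -5.75. They include Otx2 (-0.30), which pinealocytes also carry. The 1 higher was the water channel Aqp1 (0.76). Of 19 endothelial and mural genes 14 were lower and 1 higher (median -1.75), the higher one being the VEGF receptor Kdr (1.54). All 3 red blood cell genes were lower, Hbb-b2 by a difference of -3.42. Of 7 mast cell genes 6 were lower (median -2.97), with the melatonin enzyme Tph1 counted among them. Of 8 neutrophil genes 6 were lower (median -2.84) and 2 higher, Lcn2 (3.33) and Mmp9 (2.31).

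Glial lists were mixed, beside 26% of all genes higher and 32.4% lower. Of 18 Mueller glia genes 11 were higher and 1 lower (median 0.66), or 10 and 4 after median centring. The glutamate transporter Slc1a3 read 5580.2, 6475.0 and 5698.1 in cKO retina and 297.9, 361.5 and 485.7 in cKO pineal gland (3.92 ± 0.19), and the transcription regulator Id3 was lower (-2.56). Of 8 astrocyte and interstitial glia genes 4 were higher and 2 lower (median 0.86), the higher ones including the water channel Aqp4 (1.44). Fabp7, a fatty acid carrier of glial progenitors, was among the lower ones and read 85.0, 133.9 and 165.1 in cKO retina and 8525.5, 7385.9 and 7379.7 in cKO pineal gland (-5.79 ± 0.21). Of 4 myelin and Schwann cell genes 1 was higher and 2 were lower (median -0.20), with Cldn11, of myelin and tight junctions, at -5.99 and myelin basic protein (Mbp) at 1.45.

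Energy, clock and ribosomal lists had medians closer to that of all genes. Of 22 mitochondrial respiration genes 0 were higher and 16 lower, beside 26% and 32.4% of all genes. After median centring 0 were higher and 22 lower. Their median was only -0.31, against -0.08 over all genes, and Cox8a, at -0.84, was the furthest. Glycolysis and creatine genes numbered 10 higher and 3 lower of 21 (median 0.18), a split that turned to 6 and 8 after median centring. The lactate exporter Slc16a3 (3.78) and the brain aldolase Aldoc (2.62) were higher, and the creatine transporter Slc6a8 (-1.39) lower. Of 21 clock genes 12 were higher and 1 lower (median 0.38, or 0.10 after median centring). The clock repressors Ciart and Cry1 differed by 2.46 and 2.00, and Nfil3, a repressor of D-box genes, by -0.87. Of 11 ribosomal protein genes 0 were higher and 3 lower (median -0.17), near the 32.4% of all genes lower, or 0 and 10 after median centring.

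Whether the tissue difference depended on Neurod1 was asked by setting it against that of the controls. In controls 8508 genes passed (66.1%), 2486 higher in retina (19.3%) and 6022 lower (46.8%), and the median was -0.08 in cKO against -0.32 in controls. 943 of the 966 genes at least 4-fold higher in cKO retina were called higher in control retina, and 780 of the 782 at least 4-fold lower were called lower. Over all genes called in cKO these counts were 2360 of 3349 and 4073 of 4174. The difference between the 2 tissue differences passed for 730 genes (5.67%), 704 more positive in cKO (5.47%) and 26 more negative (0.202%), with a median of 0.27 over all genes tested. The split depended on scaling, with 350 more positive and 1835 more negative after median centring, 642 and 218 on a common trimmed mean and 495 and 310 after quantile normalisation. Leaving out pool 3 of both pineal groups left 297 and 19.

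None of the rod, outer segment or visual cycle genes passed this test on the deposited scale, beside 5.67% of all genes. The medians of the 3 lists were -0.01, -0.05 and 0.09, against 0.27 over all genes. After median centring 10 of 18 rod, 10 of 15 outer segment, 2 of 10 visual cycle and 4 of 11 cone genes were more negative in cKO, beside 1835 of all 12881 genes. Among cone genes only Gnb3 passed (0.66 ± 0.12, adjusted p = 0.0008), and not after median centring. Chrnb4 (1.05) and Lhx4 (0.62) of the melatonin and pinealocyte list and Vsx1 (1.04) of the transcription factors passed. All 3 lost the call after median centring (0.51, 0.08 and 0.50) and without pineal pools 3 (adjusted p = 0.15, 0.18 and 0.064).

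The reactive gliosis list had the largest median difference of differences among the 37 lists. All 14 tested members were more positive in cKO (median 2.60), beside 5.47% of all genes. Under each other scaling and without pineal pools 3, 13 or 14 were. In cKO 12 of the 14 were higher in retina and 0 lower (median 1.63), whereas in controls 1 was higher and 10 lower (median -0.65). Lcn2, an acute-phase iron-trapping protein, read 1276.7, 2221.7 and 1377.9 in cKO retina and 127.7, 142.6 and 156.7 in cKO pineal gland. Its control signals were 190.5, 119.9 and 220.9 in retina and 399.8, 259.9 and 484.7 in pineal gland, so the order of the tissues was opposite. The difference of differences was 4.37 ± 0.56 (adjusted p = 6.9e-06).

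Gfap, the filament of reactive glia, read 2333.8, 2987.4 and 2564.7 in cKO retina and 861.6, 1064.7 and 662.7 in cKO pineal gland (1.61 ± 0.25). Control retinas read 509.9, 309.6 and 390.0 and control pineal glands 831.8, 956.8 and 945.5 (-1.17 ± 0.25), again with the order turned. Edn2, an endothelin of stressed photoreceptors, differed by 5.64 in cKO and 2.65 in controls, and Socs3, a feedback inhibitor of STAT3, by 2.15 and -0.58. Serpina3n (1.55 and -1.52) and the transcription factor Cebpd (2.39 and -0.65) had the same turn.

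Microglia and macrophage genes were lower in retina in both genotypes but less so in cKO. Of 17 such genes 12 were lower and 1 higher in cKO (median -0.92), and 17 of 17 were lower in controls (median -2.80). For 15 of the 17 the difference of differences passed (median 2.08), beside 5.67% of all genes. Ptprc, the CD45 antigen, read 112.3, 142.5 and 151.0 in cKO retina and 808.0, 661.2 and 618.7 in cKO pineal gland, beside 18.7, 37.3 and 51.6 in control retina and 858.0, 898.0 and 1233.8 in control pineal gland (2.09 ± 0.33, adjusted p = 0.00011). P2ry12, a purine receptor of microglia, was the 1 gene higher in cKO retina (0.92), and was lower in control retina (-0.92). Of 19 interferon-stimulated and antigen presentation genes 14 passed more positive, beside 5.47% of all genes, but 7 without pineal pools 3. Between the cKO tissues 8 of these 19 were lower in retina and 2 higher. Of 12 complement genes 7 were lower in cKO retina and 1 higher (median -0.75). The difference of differences passed for 6 of the 12 complement genes. They were C1qc (2.95), C1qb (2.70) and C1qa (2.27) of the first component, the inhibitors Serping1 (2.93) and Cfi (2.54), and the receptor C5ar1 (1.67).

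**Figure D5:**
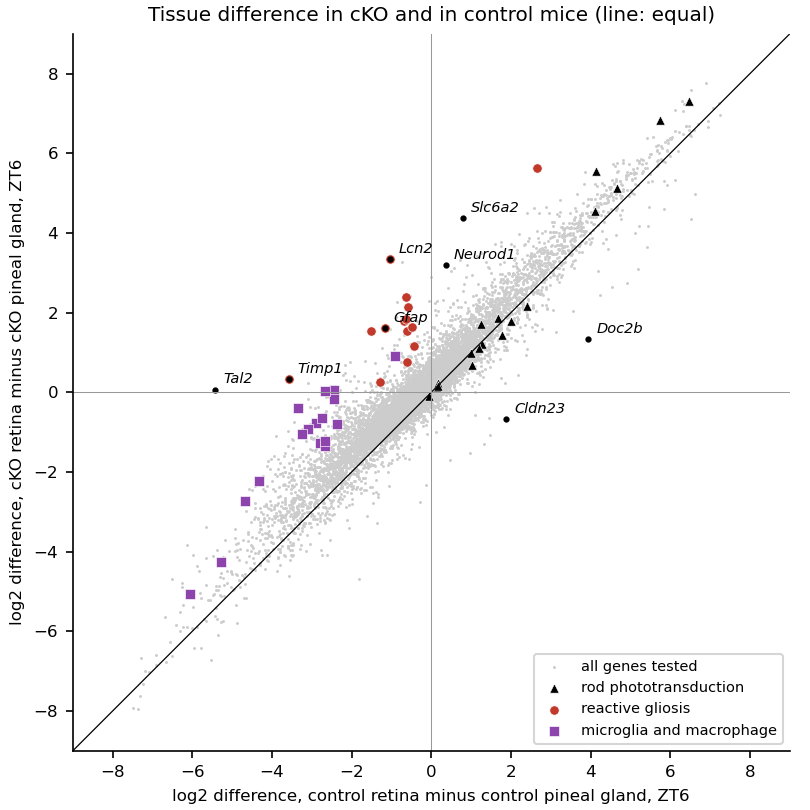
Log2 tissue difference (retina minus pineal gland, ZT6) in cKO on the vertical and in controls on the horizontal axis for all 12881 genes tested, with a line where they are equal. Rod genes lie near the line, while reactive gliosis genes lie above it, such as Lcn2 at 3.33 in cKO and -1.04 in controls.

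Some single genes on no list also had a tissue difference that differed between the genotypes. Tal2, a bHLH factor, read 875.0, 1542.4 and 1254.1 in cKO retina and 1190.4, 913.3 and 1356.2 in cKO pineal gland, with overlapping pools (0.07 ± 0.28, adjusted p = 0.86). In controls it read 3.5, 8.4 and 18 in retina and 1111.4, 1043.2 and 1043.6 in pineal gland, which gave the largest difference of differences among genes named by rule, 5.48 ± 0.40 (adjusted p = 4.3e-10). Slc6a2, the noradrenaline transporter, read 940.1, 1257.3 and 1142.7 in cKO retina and 33.6, 32.1 and 49.3 in cKO pineal gland, beside 73.6, 98.5 and 87.2 in control retina and 47.0, 42.7 and 39.7 in control pineal gland (3.59 ± 0.33, or 1.78 with probe sets averaged).

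In the other direction Doc2b, a calcium sensor of vesicle release, read 87.4, 152.5 and 78.8 in cKO retina and 43.6, 24 and 27 in cKO pineal gland, beside 729.6, 659.5 and 592.9 in control retina and 20.9, 26.6 and 39.2 in control pineal gland (-2.59 ± 0.40). Ankrd33, an ankyrin repeat protein of photoreceptors, read 445.1, 635.7 and 327.0 in cKO retina and 1236.3, 1503.4 and 1266.5 in cKO pineal gland. Its control signals were 3497.5, 2932.1 and 3026.9 in retina and 1457.4, 1754.4 and 1604.8 in pineal gland, so the tissue order turned (-2.49 ± 0.49, adjusted p = 0.0014). Such a turn, called in both genotypes and in the difference, was found for 53 genes, 47 higher in cKO retina and 6 lower, or 157 genes (26 and 131) after median centring, of which 26 and 6 were among the same genes. Without pineal pools 3 there were 28 such genes, 24 higher and 4 lower.

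The same tissue comparison at ZT20 used other pools labelled cKO. Of these, 4 carried Neurod1 signal at 26.5 to 52.4% of the ZT20 control mean of their tissue. Neurod1 read 369.4, 3595.4 and 3582.2 in cKO retina pools 1, 2 and 3 at ZT20 and 22.5, 1896.7 and 960.0 in cKO pineal pools. Pools 2 and 3 thus held 49.7 and 49.5% of the ZT20 control mean in retina and 52.4 and 26.5% in pineal gland. Pool 1 held 5.1% in retina and 0.621% in pineal gland. With all pools 7271 genes passed (56.4%), 3658 higher in retina (28.4%) and 3613 lower (28%). Of the genes at least 4-fold apart at ZT6, 958 of 966 higher ones (99.2%) and 772 of 782 lower ones (98.7%) were called in the same direction at ZT20. Over all genes called at ZT6 the shares were 88.6% of the higher and 77.6% of the lower ones. Without the 4 pools each tissue has 1 pool at ZT20, assumed to vary like the other groups, and 4801 genes passed, 3297 higher and 1504 lower.

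The tissue difference at ZT6 differed from that at ZT20 for 144 genes (1.12%), 92 more positive by day (0.714%) and 52 more negative (0.404%), and for 55 without the 4 pools, where ZT20 rests on 1 pool of each tissue. 4 of 19 melatonin and pinealocyte genes were more positive by day and 1 more negative, beside 0 and 1 of 18 rod genes. Aanat read 44.5, 55.4 and 80.6 in cKO retina at ZT20 and 3638.6, 4188.6 and 5151.9 in cKO pineal gland, and its difference was 2.57 ± 0.34 more positive by day (adjusted p = 4.3e-05). Gng4, a G protein gamma subunit, read 1002.3, 1552.4 and 1168.7 in cKO retina and 153.5, 93.7 and 88.3 in cKO pineal gland at ZT6. At ZT20 it read 1152.1, 981.2 and 1373.2 in cKO retina and 2560.8, 1388.4 and 1754.2 in cKO pineal gland, so its direction turned (3.31 at ZT6, -0.66 at ZT20, difference 3.97 ± 0.38). The carboxypeptidase Cpm turned likewise (2.88 and -0.90).

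Opn1sw, Pde6b, Sv2b and Neurod4 were more negative by day. Opn1sw read 4154.8, 3858.7 and 4294.8 in cKO retina at ZT20 and 372.4, 306.1 and 240.3 in cKO pineal gland, and its tissue difference was 1.97 at ZT6 and 3.70 at ZT20 (difference -1.72 ± 0.38, adjusted p = 0.013). The phosphodiesterase subunit Pde6b (-0.77, adjusted p = 0.0034) and the synaptic vesicle protein Sv2b (-1.17, adjusted p = 0.00029) had smaller differences in the same direction. Neurod4, lower in cKO retina by day, read 9089.0, 8110.9 and 8136.4 in cKO retina at ZT20 and 8588.8, 7950.7 and 9739.4 in cKO pineal gland, with overlapping pools (-0.46 at ZT6, -0.05 at ZT20, difference -0.41, adjusted p = 0.027).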

How the data were processed

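Pools of retinas or pineal glands were measured on Affymetrix Mouse 430 2.0 arrays. Per the labels' protocols, RNA from the RNeasy Micro kit was amplified (NuGEN Ovation V2) and biotin-labelled (FL-Ovation). The deposited values are linear intensity signals, 1 per probe set and array for 45101 probe sets, and the submitters' processing notes name the software GCOS. Its version, the array scaling and detection calls are not given in the sources used here, and no scan date was used, so batches of arrays were not examined. The number of arrays limits the precision.

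Gene symbols came from GEO's platform annotation: 34945 probe sets had 1 symbol, 932 several and 9211 none, and only the first were used. Each gene was taken from its brightest probe set over 24 arrays, avoiding cross-hybridising ones. Values were converted to log2(signal + 16) without further scaling. Genes above the array median on at least 3 of 24 arrays were tested with limma 3.58.1 in R 4.3.3 (lmFit, eBayes with trend), with 1 mean for each of 8 groups over all 24 arrays. P-values are two-sided and Benjamini-Hochberg adjusted over 12881 genes, and 0.05 was the threshold. For 1 gene on its own, exact permutation of 3 pools against 3 reaches no p below 0.1.

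Groups came from the sample titles. The comparisons were cKO retina against cKO pineal gland at ZT6 and at ZT20, control retina against control pineal gland at ZT6, and the differences of these differences between genotypes and between times. Of 37 gene lists 514 genes were matched to the arrays and 54 were not. The comparison, the lists and the rule for named genes were chosen with earlier results of these data known. The rule named Neurod1, the 15 largest differences each way with pools that do not overlap, the 8 largest each way of the differences of differences, all members of the rod, cone, transcription factor and melatonin lists, and up to 4 called members each way of every other list. Clones, predicted genes and sex-linked genes were skipped.

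The fit was tested on simulated data for the ZT6 comparison, with 200 of 12881 genes changed. It recovered 78% of changes of 1 and 100% of changes of 2 on the log2 scale, with 13 false calls. The simulated errors were independent and held no shift of whole arrays, so errors of scaling are not covered. Alternatives were other scalings, pseudocounts, filters, probe set rules and variance models, the pool number as a block, and leaving out single pools.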

Additional observations from a re-analysis of the deposited data

Results flagged for a closer look

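The genes below differed in their tissue difference between 2 sets of pools, by limma's test of that difference with n = 3 pools per group and an adjusted p of 0.05 or less. They are the 8 largest each way, so their sizes are selected ones.

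Between cKO and control mice at ZT6, the tissue difference (retina minus pineal gland) was more positive in cKO for the bHLH factor Tal2 (5.48), Lcn2 (4.37), the metalloproteinase inhibitor Timp1 (3.91), the noradrenaline transporter Slc6a2 (3.59), Fgf2os (3.37), the chemokine Ccl12 (3.34), the serine protease inhibitor Serpina3n (3.07) and Cebpd (3.04). Timp1 read 342.2, 491.3 and 481.4 in cKO retina and 324.8, 401.8 and 299.4 in cKO pineal gland, beside 30.5, 17.3 and 34.9 in control retina and 578.1, 494.3 and 424.2 in control pineal gland. Fgf2os lies antisense to Fgf2, and these arrays cannot assign shared signal between them with certainty.

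The tissue difference was more negative in cKO for the immunoglobulin gene Iglv1 (-2.86), the muscle LIM protein Csrp3 (-2.60), Doc2b (-2.59), the claudin Cldn23 (-2.56), the histidine decarboxylase Hdc (-2.55), Ankrd33 (-2.49), the sialyltransferase St6galnac2 (-2.46) and Agr2 (-2.20). Iglv1 read 1100.3, 196.2 and 426.5 in the 3 cKO pineal pools, a spread of several fold, and lost its call with probe sets averaged (-1.08, adjusted p = 0.081). St6galnac2 was -1.20 with probe sets averaged.

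Between ZT6 and ZT20 in cKO mice, the tissue difference was more positive by day for the cell cycle factor E2f8 (4.08), Gng4 (3.97), Cpm (3.78), Mctp2 (3.25), Tunar (3.06), the stanniocalcin Stc2 (2.97), Gulo (2.69) and the potassium channel Kcnc1 (2.68). At ZT20 E2f8 read 11.8, 26.2 and 7.8 in cKO retina and 1907.4, 1459.7 and 1470.9 in cKO pineal gland, and at ZT6 7.1, 15.3 and 12.0 in cKO retina and 96.2, 58.2 and 59.8 in cKO pineal gland.

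It was more negative by day for Iglv1 (-2.66), the semaphorin Sema5b (-2.62), Spc25 (-2.56), Clca1 (-2.21), the contactin Cntn4 (-2.10), Adgrb3 (-2.07), the relaxin Rln1 (-1.99) and the calcium channel subunit Cacnb2 (-1.89). Spc25 had an adjusted p of 0.05 and lost its call when any of several single pools was left out. Without the 4 cKO pools of ZT20 that carried Neurod1 signal, which leaves 1 pool of each tissue at ZT20, Gulo was 2.56, Iglv1 -2.59, Sema5b -2.21, Clca1 -2.70, Adgrb3 -2.04 and Rln1 -1.76, and these 6 did not pass (adjusted p = 0.052 to 0.2).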

How the results depend on the processing

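At ZT6 7523 genes were called between cKO retina and cKO pineal gland, and 6750 to 7408 when single pools were left out. Median centring gave 6963 lower genes, and a pseudocount of 64 left 492 at least 4-fold lower. Sag turned to -0.05 after median centring. For cKO against control, 730 calls became 2185 after median centring (350 more positive, 1835 more negative), 316 without pineal ZT6 pools 3 (297 more positive), 218 more negative on a common trimmed mean and 310 after quantile normalisation. Single pools left out gave 438 to 992 calls, with 405 to 971 more positive and 20 to 34 more negative. The lowest count was without cKO retina pool 2, and 486, 443 and 497 remained without control pineal pool 2, control pineal pool 3 and control retina pool 2.

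At ZT20 the 7271 calls became 4801 (1504 lower) without cKO ZT20 pools 2 and 3 and 6541 to 7167 without single pools, and 6599 genes were lower after median centring. The 144 calls between times became 325 (179 and 146) after median centring, 470 (290 and 180) after quantile normalisation, 55 (19 more positive) without cKO ZT20 pools 2 and 3, and 95 to 228 without single pools, with 57 to 99 more positive and 28 to 150 more negative. The count of 228 was without pineal ZT20 pool 3, and 95 without pineal ZT20 pool 2. Both alternatives that leave out several pools were chosen after seeing the data, and the one at ZT20 leaves 1 pool of each tissue. The cause of these changes was not tested.

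The pool numbers were not treated as pairs: deviations of same-numbered cKO retina and cKO pineal pools correlated at 0.036, 0.211 and -0.005, and those of cKO and control retina at -0.351, 0.125 and 0.363, though those of cKO and control pineal gland at 0.228, 0.351 and 0.418. With the number as a block there were 7482 calls at ZT6 (7941 against 7662 on the 6 arrays alone), 706 between genotypes, 7232 at ZT20 and 140 between times.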

Other observations

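A pair of muscle regulators stood among the genes lower in cKO retina. Myog, which drives muscle differentiation, read 9.6, 8.2 and 9.5 in cKO retina and 2161.9, 1792.2 and 2502.5 in cKO pineal gland, and Pax3, a factor of muscle and neural crest progenitors, 2.6, 2.3 and 29.0 in cKO retina and 2186.2, 1800.2 and 2363.0 in cKO pineal gland. Of 22 other muscle genes, chosen after these values were seen, 0 lay above the array median in all 3 cKO retina pools and 0 in all 3 cKO pineal pools.

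Of the 6 genes whose tissue order turned with retina lower in cKO, Ankrd33, Csrp3, Hdc and Cldn23 came from the rule for named genes, and Knstrn and Aipl1 were named after their values were seen.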
